A study of Mus musculus with 10 samples.

Results

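DNA replication and mitosis genes were examined in fetal gonadal soma as 40 genes taken from a list. The list was chosen with earlier results of these data known. It held 20 S phase genes, whose products copy DNA, and 20 G2/M genes, whose products act as chromosomes are condensed and pulled apart. All 40 had a row among the 13578 genes of the deposited table. RNA had been sequenced from the Oct4- fraction of the gonads, the cells left when germ cells carrying Oct4 are sorted away, from individual female mouse embryos at embryonic day 13.5. Every embryo was Gulo-/- on a C57BL/6 background. Gulo encodes the enzyme that completes vitamin C synthesis in mice, so all 10 embryos, controls included, depended on the vitamin C of the mother's diet. In 5 of them the colony had received vitamin C at a physiological level (vitamin C supplied), and in the other 5 it had been taken away over the first 2 weeks of gestation (vitamin C withdrawn). Embryos are numbered 1 to 5 within each group in the order of their labels. The samples are described as biological replicates, but litters are not named, so p-values speak only of how far these samples lie apart, which may be technical.

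As background, a cell prepares replication in G1 by loading the MCM helicase onto origins, with the help of Cdc6 and Cdt1. In S phase the helicase is switched on with the GINS complex and polymerases copy the strands. E2F factors drive many of these genes late in G1, and cyclin E with its kinase helps to start S phase. The genes of G2 and mitosis are switched on later, largely through the DREAM and MuvB complexes with B-MYB and FOXM1, which bind the CHR element, and through NF-Y, which binds CCAAT boxes. Cyclin B with Cdk1 then drives entry into mitosis, and the anaphase-promoting complex ends it. In the fetal ovary at this stage the somatic supporting and interstitial cells are still being set up, and part of them divide.

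Promoters of the members were set beside all promoters by their motifs. The background above already ties such genes to E2F, CHR and CCAAT, so the shares are a description and not an independent finding. RefSeq promoters on GRCm38.p6, from 250 bases before to 50 bases after a gene's start, were found for 31 of the 40 members, 15 S phase genes with 19 promoters and 16 G2/M genes with 16. They were searched on both strands for the CHR letters TTTGAA or TTCGAA, for CCAAT, and for the E2F letters GCGGGAA or GCGCGAA, and capitals mark every match, on either strand, in the sequences printed here. The 5 printed are the S phase gene with the largest difference upwards (Cdc6), the G2/M genes with the largest differences upwards (Ccnb2) and downwards (Ube2c), and the member of each list that varied most closely with the rest of its list (Rrm1 and Plk1). Cdc6 lies at chr11:98907901-98908200 on the plus strand, Rrm1 at chr7:102441445-102441744 (plus), Ccnb2 at chr9:70421505-70421804 (minus), Ube2c at chr2:164769679-164769978 (plus) and Plk1 at chr7:122159185-122159484 (plus).
Cdc6: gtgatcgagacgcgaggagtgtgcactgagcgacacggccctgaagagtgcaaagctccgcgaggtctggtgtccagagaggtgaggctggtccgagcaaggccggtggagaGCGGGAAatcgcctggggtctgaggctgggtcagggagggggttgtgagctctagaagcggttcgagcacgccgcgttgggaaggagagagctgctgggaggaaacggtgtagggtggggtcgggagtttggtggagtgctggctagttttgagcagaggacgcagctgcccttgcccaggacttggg
Rrm1: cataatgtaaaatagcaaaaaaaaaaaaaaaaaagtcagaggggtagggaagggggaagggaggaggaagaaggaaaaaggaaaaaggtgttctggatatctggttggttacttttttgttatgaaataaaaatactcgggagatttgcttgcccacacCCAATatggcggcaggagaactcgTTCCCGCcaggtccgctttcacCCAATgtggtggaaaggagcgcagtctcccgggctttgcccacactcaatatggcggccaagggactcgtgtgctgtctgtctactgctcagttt
Ccnb2: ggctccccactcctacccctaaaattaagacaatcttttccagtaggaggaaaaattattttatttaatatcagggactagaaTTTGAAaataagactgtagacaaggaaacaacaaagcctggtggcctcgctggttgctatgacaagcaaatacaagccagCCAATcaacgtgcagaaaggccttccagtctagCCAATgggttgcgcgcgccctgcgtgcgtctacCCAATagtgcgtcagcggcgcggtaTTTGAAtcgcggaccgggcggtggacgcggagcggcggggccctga
Ube2c: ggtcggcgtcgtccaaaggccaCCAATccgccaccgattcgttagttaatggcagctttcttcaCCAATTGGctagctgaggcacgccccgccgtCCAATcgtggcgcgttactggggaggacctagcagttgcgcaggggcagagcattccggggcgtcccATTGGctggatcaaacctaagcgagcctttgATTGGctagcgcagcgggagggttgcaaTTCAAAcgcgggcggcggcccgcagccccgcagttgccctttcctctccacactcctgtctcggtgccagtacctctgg
Plk1: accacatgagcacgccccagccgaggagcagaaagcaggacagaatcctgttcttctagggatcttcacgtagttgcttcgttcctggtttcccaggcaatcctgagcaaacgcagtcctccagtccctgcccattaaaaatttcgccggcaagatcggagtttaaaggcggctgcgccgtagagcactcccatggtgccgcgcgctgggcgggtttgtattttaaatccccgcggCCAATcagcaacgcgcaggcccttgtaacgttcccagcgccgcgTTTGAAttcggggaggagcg

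Cdc6 and Rrm1 carried an E2F match and no CHR match. Ccnb2, Ube2c and Plk1 carried CHR and CCAAT matches and no E2F match. Ccnb2 had 3 CCAAT and 2 CHR matches, Plk1 had 1 of each, and Ube2c had 1 CHR and 6 CCAAT matches, of which 2 overlap on opposite strands. Over the list, 12 of the 16 G2/M promoters (75%) held both a CHR and a CCAAT match, against 2 of the 19 S phase promoters and 7.52% of all 32851 promoters of the same length. E2F matches went the other way, with 11 of 19 S phase promoters (57.9%), 1 of 16 G2/M promoters (Cdk1) and 6.00% of all promoters. Counted whatever else a promoter held, CCAAT was in 14 of 16 G2/M promoters and 10 of 19 S phase promoters, against 37.4% of all, and CHR in 12 of 16 and 3 of 19, against 19.2% of all. Top2a had the most matches among the G2/M promoters, with 4 CHR and 6 CCAAT, and Birc5 and Nusap1 had none of the 3 motifs. A match describes the letters only. Ccna2, Cdc25c, Mcm4, Aurkb, Gins1, Gins2, Ccne2, Pole and Tpx2 are named only.

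Replication and mitosis genes differed little between embryos with and without vitamin C. Values are rlog values (log2 scale, shrunken towards each gene's mean by the authors' software), and a difference is withdrawn minus supplied. None of the 40 members passed limma's test at an adjusted p of 0.05, where 0.0221% of all genes (3 of 13578, none a member) did, and limma adjusted p over the members ran from 0.963 to 0.999. Without adjustment 0 of the 40 members had a p under 0.05, against 5.30% of all genes. The 5 supplied and 5 withdrawn values overlapped for all 40 members, while 0.810% of all genes had groups that did not overlap. The 95% interval of the difference covered 0 for all 40 members and stayed within 0.25 on either side of 0, with half-widths from 0.091 to 0.162. As fold changes on this scale, the intervals reached down to 0.861 (Ube2c) and up to 1.15 (Cdc6), and the shrunken scale understates folds in read counts. In bulk RNA, fewer dividing cells and less RNA of a gene per cell cannot be told apart.

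**Figure D1:**
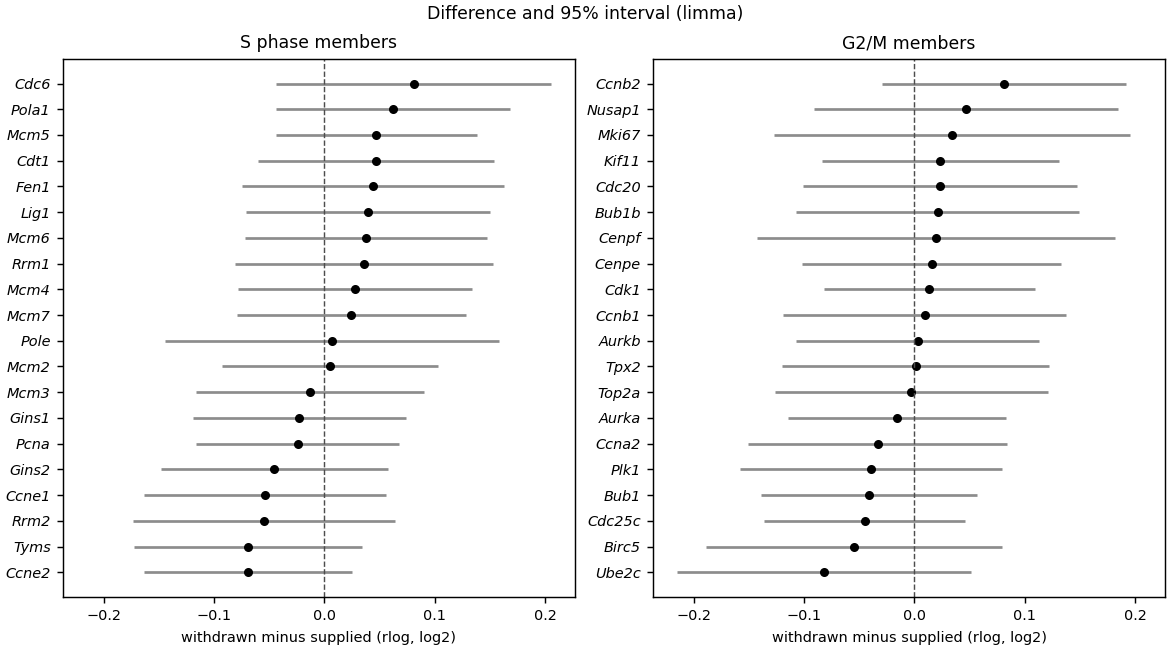
Difference, withdrawn minus supplied, for each of the 40 members on the rlog (log2) scale, with points for the limma estimate and lines for the 95% interval, n = 5 embryos per group. All 40 lines cross 0, and the points run from -0.082 (Ube2c) to 0.081 (Cdc6 and Ccnb2).

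The S phase list had a median difference of 0.016, with 12 of 20 genes above 0 and 8 below, and the G2/M list one of 0.0060, also with 12 above and 8 below. Over all genes the median was 0.00021 and 50.2% lay above 0. The median size of a difference without its sign was 0.042 for S phase genes, 0.023 for G2/M genes and 0.032 for all genes. These medians are within what a single embryo can move: that of the S phase list was -0.0067 without withdrawn embryo 5, -0.0049 without withdrawn embryo 4 and 0.044 without withdrawn embryo 1, and that of the G2/M list -0.039 without withdrawn embryo 5, -0.018 without supplied embryo 4, -0.0051 without supplied embryo 2 and 0.030 without withdrawn embryo 1.

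**Figure D2:**
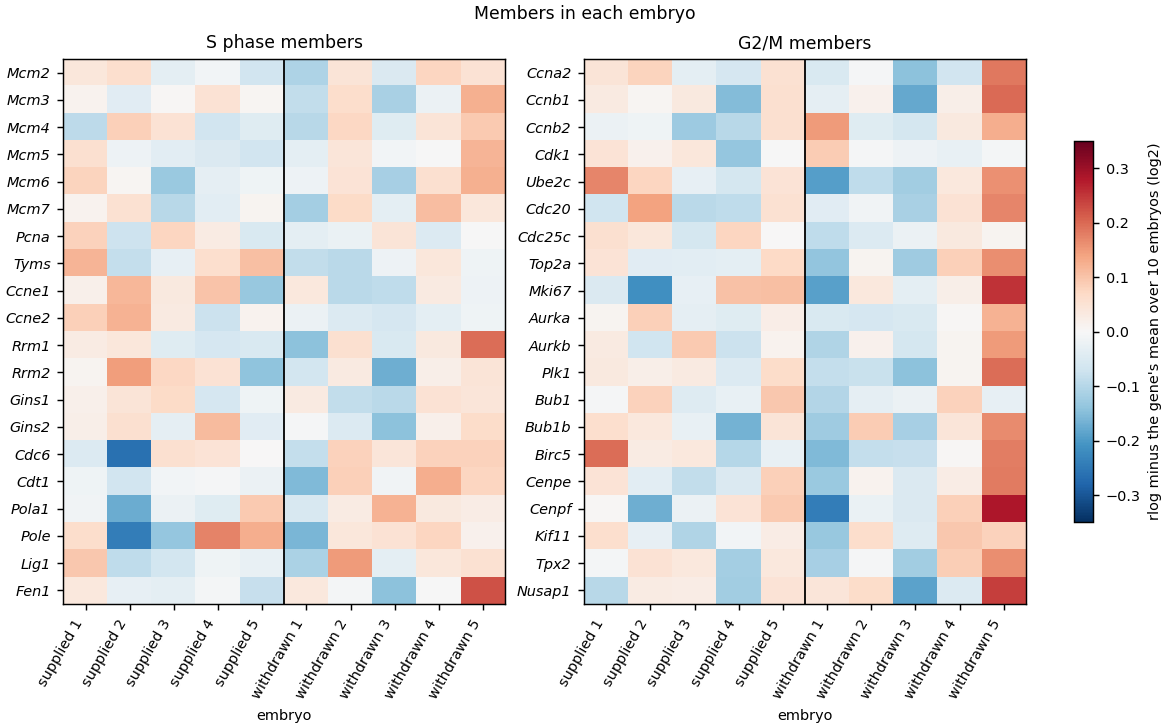
Deviation of each member from its mean over the 10 embryos on the rlog (log2) scale, genes in rows by list and embryos in columns by group. Withdrawn embryo 5 is the highest of the 10 for 13 of the 20 G2/M genes, and withdrawn embryo 1 the lowest for 9.

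Helicase and origin genes came first in the S phase list. Mcm2 to Mcm7, the 6 subunits of the replicative helicase, had differences between -0.013 (Mcm3) and 0.047 (Mcm5). Mcm5 read 11.49, 11.41, 11.39, 11.38 and 11.36 in supplied embryos 1 to 5 and 11.40, 11.47, 11.42, 11.43 and 11.55 in withdrawn embryos 1 to 5 (means 11.41 ± 0.048 and 11.45 ± 0.0602, SD, n = 5 each). Only withdrawn embryo 5 lay above every supplied embryo, and the groups overlapped. Mcm3 read 12.38, 12.33, 12.37, 12.42 and 12.37 with vitamin C and 12.28, 12.43, 12.25, 12.35 and 12.49 without it, so that the withdrawn embryos lay on both sides of the supplied ones. Mcm2, Mcm4, Mcm6 and Mcm7 had differences of 0.0051, 0.028, 0.038 and 0.024, each smaller than its SE of 0.0464 to 0.0521.

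Cdc6, the ATPase that helps to load the helicase, had the largest difference upwards in the S phase list. It read 9.37, 9.16, 9.47, 9.47 and 9.42 in supplied embryos and 9.34, 9.50, 9.46, 9.50 and 9.50 in withdrawn embryos. Supplied embryo 2 was the lowest of the 10, and withdrawn embryo 1 was also low, so the groups overlapped. The difference was 0.081 (SE 0.059, 95% interval -0.044 to 0.21, limma adjusted p = 0.978). Cdt1, its partner in loading, read 10.47, 10.42, 10.48, 10.48 and 10.47 with vitamin C and 10.33, 10.57, 10.47, 10.61 and 10.56 without. The supplied embryos lay close together (SD 0.0249) while the withdrawn ones spread on both sides of them (SD 0.112), and the difference was 0.047. Gins1 and Gins2, subunits of the complex that joins the active helicase, had differences of -0.023 and -0.046. Gins2 shares its locus with Gse1 on the other strand, and it is not known whether reads were assigned by strand, so reads of the pair cannot be told apart; the same holds for Mcm7 with Cops6 and Ap4m1.

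The fork genes lay on both sides of 0. Pola1, the catalytic subunit of the polymerase that primes each strand, had the largest difference among them, 0.062 (10.78 ± 0.0951 against 10.84 ± 0.0623). Pole, the catalytic subunit of the leading strand polymerase, had the widest spread of the S phase members: 11.27, 10.97, 11.08, 11.39 and 11.34 with vitamin C and 11.05, 11.25, 11.26, 11.29 and 11.23 without, a difference of 0.0069 (SE 0.0718). Its supplied embryos thus spanned all of its withdrawn embryos. Lig1 and Fen1, which join and trim the fragments of the lagging strand, had differences of 0.04 and 0.044, and Pcna, the sliding clamp, one of -0.024. Pcna has named pseudogene copies (Pcna-ps1 and Pcna-ps2), as do Tyms, Ccnb1 and Ccnb2, and how reads shared with them were counted is unknown, which makes these values uncertain. Genes with no row under their own name also overlap members on the other strand, such as Zswim9 with Lig1, Tmem258 with Fen1 and Tnnc2 with Ube2c. How reads of these overlaps were assigned is likewise unknown.

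Nucleotide supply and G1/S cyclin genes held the largest differences downwards in the S phase list. Tyms, which makes thymidylate, read 9.75, 9.55, 9.61, 9.69 and 9.74 in supplied embryos and 9.55, 9.54, 9.61, 9.67 and 9.62 in withdrawn ones, a difference of -0.069 (SE 0.0488, limma adjusted p = 0.974). Supplied embryos 1, 4 and 5 stood above every withdrawn embryo and the other 2 lay among them. The ribonucleotide reductase subunits went apart in sign, with 0.036 for Rrm1 and -0.054 for Rrm2, neither larger than its SE of 0.0554 and 0.0561. Ccne2, a cyclin E, had the lowest p of all 40 members. It read 8.61, 8.65, 8.56, 8.46 and 8.54 with vitamin C and 8.51, 8.48, 8.47, 8.50 and 8.52 without. Supplied embryos 1, 2, 3 and 5 lay above all 5 withdrawn embryos and supplied embryo 4 below them, and the withdrawn embryos stood close together (SD 0.0185 against 0.075). The difference was -0.07 (SE 0.0446, 95% interval -0.16 to 0.025, limma unadjusted p = 0.138, limma adjusted p = 0.963; two-sided exact permutation p = 0.0873, where 252 orders allow 0.00794 at the smallest). Ints8 overlaps Ccne2 on the other strand. Ccne1 had a difference of -0.054 with a limma adjusted p of 0.991.

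Among cyclins and Cdk1 in the G2/M list, Ccnb2 had the largest difference upwards, 0.081 (SE 0.0524, 95% interval -0.03 to 0.19, limma adjusted p = 0.963). This B-type cyclin read 9.75, 9.76, 9.64, 9.67 and 9.83 in supplied embryos and 9.92, 9.73, 9.71, 9.80 and 9.90 in withdrawn embryos. Withdrawn embryos 1 and 5 were above all supplied embryos, and the other 3 were among them. Ccnb1, the other B-type cyclin, had a difference of 0.0091, and Ccna2, cyclin A of S phase and G2, one of -0.033. Cdk1, the kinase they activate, read 10.19, 10.16, 10.19, 10.01 and 10.14 with vitamin C and 10.23, 10.14, 10.13, 10.12 and 10.14 without, a difference of 0.013 (SE 0.0453). Each group had a single embryo apart, supplied embryo 4 low and withdrawn embryo 1 high. Cdc25c, the phosphatase that activates Cdk1, had a difference of -0.045. Exosc9 overlaps Ccna2 on the other strand.

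Ube2c, the ubiquitin-conjugating enzyme of the anaphase-promoting complex, had the largest difference downwards of the 40. It read 10.50, 10.41, 10.30, 10.27 and 10.38 in supplied embryos and 10.14, 10.24, 10.21, 10.37 and 10.49 in withdrawn ones. Withdrawn embryos 1, 2 and 3 lay below every supplied embryo, whereas withdrawn embryos 4 and 5 lay among them. The difference was -0.082 (SE 0.0631, 95% interval -0.22 to 0.051, limma adjusted p = 0.978), and without withdrawn embryo 5 it was -0.13 (limma unadjusted p = 0.035, limma adjusted p = 0.847). Cdc20, the activator of the same complex, had a difference of 0.023 (9.96 ± 0.105 against 9.98 ± 0.107); Elovl1 overlaps it on the other strand.

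The mitotic kinases had differences from -0.041 to 0.021. Plk1, the polo-like kinase, read 10.32, 10.31, 10.32, 10.24 and 10.35 with vitamin C and 10.20, 10.21, 10.14, 10.30 and 10.48 without, a difference of -0.039 (SE 0.0562). Withdrawn embryos 1, 2 and 3 were below all supplied embryos and withdrawn embryo 5 was above them all. Aurka, the kinase of the spindle poles, Aurkb, that of the chromosomal passenger complex, and the spindle checkpoint proteins Bub1 and Bub1b had differences of -0.016, 0.0028, -0.041 and 0.021.

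Chromosome and spindle genes gave the same picture. Top2a, which untangles sister DNA, read 13.44, 13.35, 13.35, 13.35 and 13.46 in supplied embryos and 13.25, 13.40, 13.26, 13.47 and 13.55 in withdrawn ones, a difference of -0.0027 (SE 0.0584). Mki67, the proliferation marker that coats mitotic chromosomes, read 14.33, 14.16, 14.35, 14.48 and 14.48 against 14.19, 14.42, 14.35, 14.40 and 14.63, a difference of 0.034 (SE 0.0764). For both genes withdrawn embryo 5 was the highest of the 10 and the groups overlapped. The kinetochore proteins Cenpe and Cenpf had differences of 0.016 and 0.019, the spindle proteins Kif11, Tpx2 and Nusap1 of 0.024, 0.0011 and 0.047, and Birc5, the survivin subunit of the passenger complex, of -0.055. Nusap1 shares its locus with Oip5 on the other strand.

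Withdrawn embryos lay further apart than supplied embryos for the G2/M genes, around nearly equal means. The mean of the 20 G2/M genes was 10.89, 10.87, 10.84, 10.81 and 10.91 in supplied embryos 1 to 5 and 10.78, 10.86, 10.78, 10.89 and 11.01 in withdrawn embryos 1 to 5. Group means were 10.86 in both, with an SD of 0.0418 against 0.0976. The highest and the 2 lowest of the 10 embryos were withdrawn ones. The S phase mean was 10.77, 10.72, 10.72, 10.75 and 10.72 against 10.67, 10.76, 10.69, 10.77 and 10.80, with an SD of 0.0213 against 0.0554. Gene by gene, 18 of 20 G2/M genes and 12 of 20 S phase genes had the larger SD in withdrawn embryos, as did 47.5% of all genes. The wider spread was not particular to mitotic genes, nor shared by all of them. It was found for 12 of 16 nucleotide supply and histone assembly genes (75%), 15 of 22 G1/S control genes (68.2%) and 17 of 25 spindle genes (68%). It was found for only 10 of 23 fork genes (43.5%), 11 of 25 kinetochore genes (44%) and 13 of 28 G2/M control genes (46.4%). Among ribosomal protein genes it was found for 56 of 71 (78.9%), but there the embryo apart was withdrawn embryo 1. Its ribosomal mean was 12.98, with the other withdrawn embryos at 12.74 to 12.77. The ribosomal count was not made without that embryo. Without withdrawn embryo 5 the G2/M count was 12 of 20, the SD of the withdrawn list means was 0.0576 and the mean difference moved from -0.0011 to -0.039, while the S phase count was 11 of 20. The difference in spread was not tested.

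**Figure D3:**
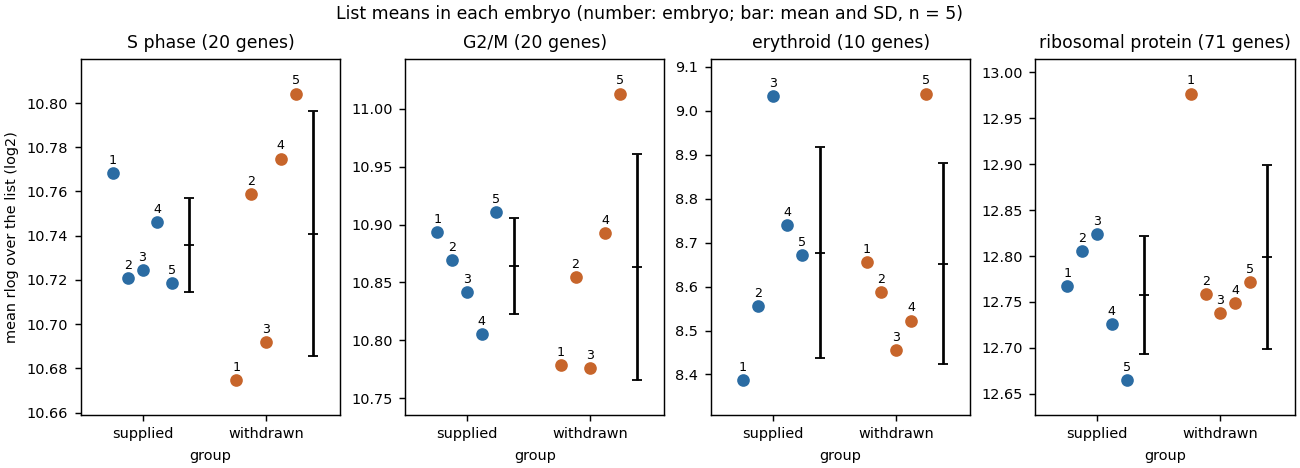
Mean of the 20 S phase genes, the 20 G2/M genes, 10 erythroid markers and 71 ribosomal protein genes in each embryo, a panel for each list. Values are on the rlog (log2) scale, with numbered points for embryos by group and bars for the group mean with its SD (n = 5). Withdrawn embryos run from 10.78 to 11.01 for G2/M genes, around the supplied ones at 10.81 to 10.91.

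Withdrawn embryo 5 had the highest value of the 10 for 13 of 20 G2/M genes (65%), 6 of 20 S phase genes and 9.37% of all genes. It lay above every supplied embryo for 15 of 20 G2/M genes, a count not made over all genes. Withdrawn embryo 1 was the lowest for 9 of 20 G2/M genes (45%) and 6 of 20 S phase genes, against 12.7% of all genes. Withdrawn embryo 3 was the lowest for 6 and 5, against 9.57% of all genes. Many of these genes varied together, so the counts are not separate observations. Apart from title numbers, whose meaning is not stated, the labels do not set these embryos apart. Withdrawn embryo 5 also had the highest mean of 10 erythroid markers, 9.04, with supplied embryo 3 next at 9.03 and the other 8 embryos between 8.39 and 8.74, and the highest mean of 10 macrophage markers, 7.39, again beside supplied embryo 3 at 7.38. Supplied embryo 3, with nearly the same erythroid and macrophage levels, had a G2/M mean of 10.84. Withdrawn embryo 1 had the highest mean of 71 ribosomal protein genes, 12.98, with the others from 12.66 to 12.82. The part of these markers in the members' values was not tested.

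The sorted cells carried the markers of gonadal soma. All 13 listed had rows, with Nr5a1 at 11.37 ± 0.126 (supplied, SD, n = 5), Wt1 at 12.97 ± 0.0623, Gata4 at 12.10 ± 0.118 and Foxl2 at 9.53 ± 0.135, and their mean ran from 11.63 to 11.77 in supplied and 11.66 to 11.76 in withdrawn embryos. Of 18 germ cell markers 6 had rows, with means of 7.01 to 7.19 and 6.85 to 7.04. In supplied embryos Nanos3 stood at 4.40 ± 0.0397 and Tfap2c at 4.63 ± 0.043, near the lowest value of the table, 4.04, while Tdrd1 stood at 5.96 ± 0.093, Prdm1 at 8.13 ± 0.272, Rec8 at 9.64 ± 0.133 and Kit at 9.84 ± 0.0958. Of the 6, 0 passed the limma threshold and 2 had an unadjusted limma p under 0.05, as had 5.30% of all genes. They were Rec8, a meiotic cohesin, with a difference of -0.48 (limma adjusted p = 0.0654), and Tdrd1 with -0.20 (limma adjusted p = 0.167). Rec8 had no overlap between groups, as had 0.810% of all genes. An unadjusted limma p under 0.05 was also found for 1 of 13 gonadal soma, 1 of 10 endothelial, 1 of 10 macrophage and 0 of 10 erythroid markers. Means of the 10 endothelial markers were 9.15 to 9.36 and 9.05 to 9.21.

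Members of each list varied together from embryo to embryo, after each group was centred on its own mean. The median Pearson correlation over the 10 embryos was 0.57 among the 190 G2/M pairs, of which 180 were above 0, 0.26 among the 190 S phase pairs (141 above 0), 0.37 between the lists (315 of 400) and -0.00072 among all gene pairs. Among the 2485 pairs of ribosomal protein genes the median was 0.78, with 95.3% above 0, so varying together was not particular to the members. All these correlations are descriptions, as the genes share libraries. Leaving out 1 embryo at a time, the G2/M median lay between 0.43 (without withdrawn embryo 5) and 0.66 (without supplied embryo 2), and the S phase median between 0.21 and 0.32. The list means had an r of 0.79, between 0.65 and 0.87 with 1 embryo left out. The closest pairs were Mki67 with Cenpf (0.95), Mcm5 with Rrm1 (0.86) and, across lists, Mcm5 with Birc5 (0.89).

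The S phase list was made of genes that went together and genes that did not. All 15 pairs among Mcm2 to Mcm7 were above 0 with a median of 0.64. Correlations with the mean of the rest of the list were 0.83 for Rrm1, 0.82 for Mcm3, 0.79 for Cdt1 and 0.78 for Mcm2, but 0.043 for Pcna, -0.027 for Ccne2, -0.028 for Ccne1 and -0.036 for Pola1. Ccne1 and Pola1 went in opposite directions (-0.83). Over 0.5 were 9 of 20 S phase genes and 16 of 20 G2/M genes, led by Plk1 and Top2a (both 0.94), Cenpe (0.92), Tpx2 (0.90) and Ube2c (0.89). The G2/M genes under 0.5 were Ccnb2 (0.41), Bub1 (0.38), Cdc25c (0.32) and Cdk1 (-0.012). Cdk1, Ccnb2 and Bub1 all had promoters with a CHR match. So did Plk1, Top2a, Ube2c, Bub1b, Aurka, Cdc20, Cenpf, Kif11 and Mki67, whose correlations ran from 0.55 (Mki67) to 0.94 (Plk1). The 4 G2/M genes whose promoters had no CHR match, Cenpe, Ccnb1, Birc5 and Nusap1, had correlations of 0.92, 0.87, 0.77 and 0.66. A link between motifs and these correlations was not tested.

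**Figure D4:**
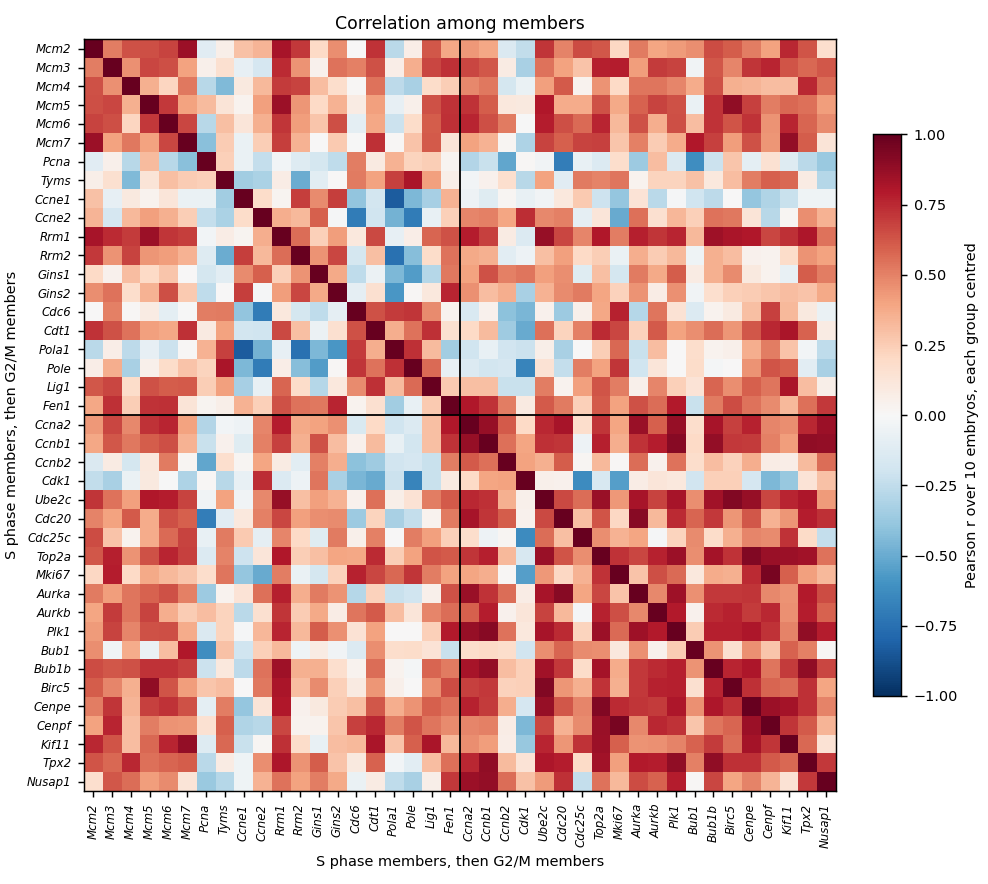
Pearson correlation between each pair of the 40 members over 10 embryos after centring each group on its own mean, S phase genes first and G2/M genes after them. The G2/M block is mostly above 0 (180 of 190 pairs), with Cdk1 apart, and the S phase block is mixed (141 of 190).

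Among the genes outside the member lists, those most like the G2/M mean over the 10 embryos were Cmya5 and Hnrnpul2 (both r = 0.95), Irf2bp1 and Smap2 (both 0.93), Mtmr9, Racgap1, Ccnf and Rfwd3 (all 0.91), and Reps2 and Hmgn5 (both 0.90). Racgap1 and Ccnf, a cytokinesis regulator and a cyclin, belong to the wider cell cycle lists described next. Those most like the S phase mean were Iws1 (0.96), Wnt9b, Ccdc6 and Farsb (all 0.95), Gmnn (0.94), Cltc and Ttyh3 (both 0.93), and Cmtm4, Nucks1 and Larp4b (all 0.92). Gmnn encodes geminin, the inhibitor of Cdt1, and belongs to the wider origin list. Orc4, of the same list, went the other way, with an r of -0.94 with the S phase mean, among the lowest of all genes outside the member lists. An r above 0.5 with the G2/M mean was found for 66 of 171 wider cell cycle genes (38.6%) and 8.89% of the other genes, and with the S phase mean for 52 (30.4%) and 10.6%.

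The wider cell cycle machinery, 8 lists of 176 genes with 171 in the table, had 0 genes past the limma threshold and 6 at an unadjusted p under 0.05, of which 1 lay above 0 and 5 below. The 6 are 3.51% of the 171, below the 5.30% of all genes, and 1 gene (0.585%) had groups that did not overlap, against 0.810% of all genes, so neither share exceeded the background. The genes named here are those of smallest p in each list. The median difference of the 171 was -0.0014. List medians ran from -0.011 (kinetochore and spindle checkpoint, 25 genes) and -0.010 (G1/S control, CDK inhibitors and E2F, 22 genes) to 0.016 (spindle, kinesins and cytokinesis, 25 genes). Cenph, a subunit of the inner kinetochore, had the lowest p of the 171. It read 8.18, 8.21, 8.24, 8.25 and 8.33 in supplied embryos and 8.14, 8.08, 8.12, 8.13 and 8.08 in withdrawn ones, with every withdrawn value lower than the lowest supplied value. The difference was -0.14 (SE 0.042, two-sided exact permutation p = 0.00794, the smallest the design allows), and its limma adjusted p was 0.879.

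The others at an unadjusted p under 0.05 that are described here overlapped between groups. Rrm2b, the reductase subunit of resting and damaged cells, read 7.79, 7.64, 7.86, 7.61 and 7.80 with vitamin C and 7.54, 7.56, 7.64, 7.66 and 7.58 without, a difference of -0.15 with a limma adjusted p of 0.900. The cyclin gene Ccnd1 had a difference of -0.13 and the repressor gene E2f6 one of -0.12, each with a limma adjusted p of 0.928. Ccnd3, another cyclin D, had a difference of 0.097 with a limma adjusted p of 0.931, opposite in sign to Ccnd1. Among origin genes the smallest p went to Orc4 (-0.11), Mcmbp (0.06) and Orc5 (0.058). At the fork they went to Pole4 (-0.091), Dna2 (-0.10) and Rnaseh2a (0.067), and Nasp, a histone chaperone, had a difference of -0.082. After Cenph came Cenpp (-0.062) and Ndc80 (0.043). Spindle genes were led by Kif2c (0.10), Cep55 (-0.083) and Nek2 (0.078), condensin and cohesin genes by Pttg1 (0.084), Ccdc99 (-0.064) and Rad21 (-0.057), and G2/M control genes by Cks1b (-0.08), Cdc26 (-0.071) and Cdc25a (0.064).

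**Figure D5:**
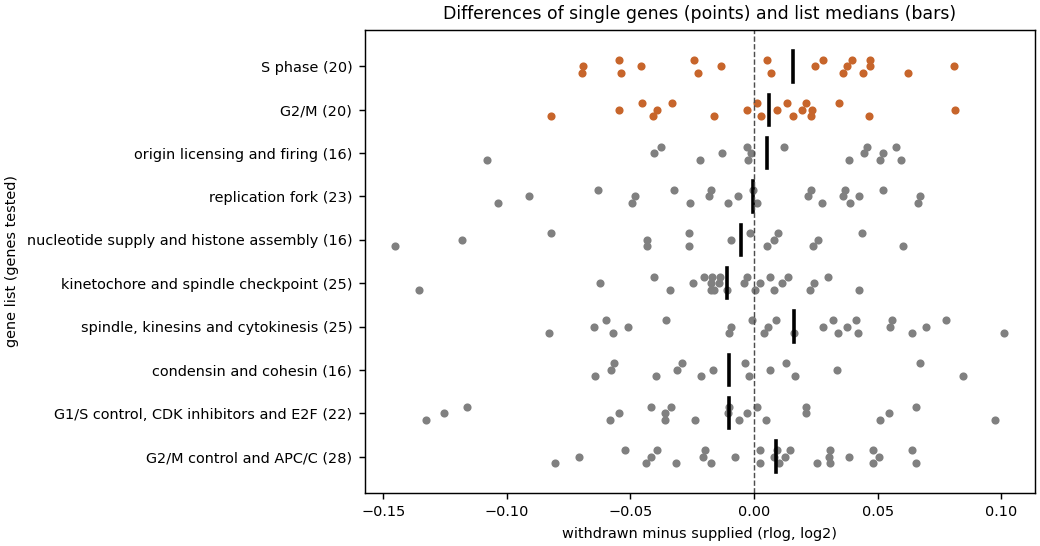
Difference, withdrawn minus supplied, for each gene of the 2 member lists and the 8 wider cell cycle lists on the rlog (log2) scale, a point per gene and a line at each list's median. List medians lie between -0.011 and 0.016, and Rrm2b at -0.15 and Cenph at -0.14 are the lowest genes.

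List by list, the wider machinery followed the G2/M members across embryos to different degrees. The mean of the condensin and cohesin list had an r of 0.97 with the G2/M mean, the nucleotide supply and histone assembly list and the spindle list 0.94 each, the fork list 0.90, the G2/M control list 0.79, the kinetochore list 0.72, the G1/S control list 0.55 and the origin list 0.34. The S phase mean was closest to the nucleotide supply list (0.90), and its r with the origin list was -0.028. The ribosomal protein list had an r of -0.36 with the G2/M mean and -0.45 with the S phase mean. Over single gene pairs of ribosomal protein genes with G2/M members the median was -0.25. Withdrawn embryo 1 had the highest ribosomal protein mean, 12.98, and the lowest S phase mean, 10.67, with a G2/M mean of 10.78. The ribosomal correlations were not computed without that embryo, so whether their negative sign rests on it was not tested. Among the cell type markers, the endothelial list had an r of 0.58 with the S phase mean and 0.18 with the G2/M mean, and the erythroid list 0.22 and 0.36. The macrophage list had 0.16 and 0.33, the germ cell list 0.13 and 0.031, and the gonadal soma list -0.36 and 0.17. The part of these cells in the members' values was not tested.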

How the data were processed

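RNA was sequenced from Oct4- gonadal cells of 10 embryos, 5 per group, with 2 ng of total RNA per library per the labels' protocols. The authors deposited 1 table of rlog values (DESeq2's shrunken log2 scale). Per the submitters' processing notes the build was mm9, and the tools included DESeq2 1.20.1, TopHat2 2.1.1 and Trim Galore 0.4.0; the counting tool and its use of strand are not given in the sources used here. The depth behind the values is unknown, and sample medians were 9.118 to 9.139. All 13578 genes (mean of at least 3) were tested with limma 3.58.1 in R 4.3.3, as withdrawn minus supplied with a variance trend, and Benjamini-Hochberg adjustment at 0.05 over all genes. Pearson correlations used group-centred values.

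The members and lists were chosen with earlier results of these data known, so no p is given for a list. Named genes are all 40 members, the 3 of smallest p in each wider list, and the 10 most correlated with each list mean; embryos, pairs and the ribosomal protein list were singled out after their values were seen. A gene that the rule names is not reported here. Ticrr and Ska3 were matched as 5730590G19Rik and F630043A04Rik. Overlapping genes and copies come from GENCODE M21 on GRCm38, another build. The limma script was tested on simulated data. Other settings tried were a mean minimum of 7 or none, no trend, robust variance, median centring, quantile normalization, sample weights, a replicate block, averaging embryos that share a title number, and leaving out each embryo.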

Additional observations from a re-analysis of the deposited data

Results flagged for a closer look

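A value far from the rest of its group was found in 6 of the 84 groups of embryos looked at (each member and each list mean in each group, with a gap over 0.71 of the group's range), and chance gives about 1 in 20. Cdc6 stood at 9.34 in withdrawn embryo 1, below the others at 9.46 to 9.50. Pole was low in the same embryo, 11.05 against 11.23 to 11.29. Cdk1 was high there, 10.23 against 10.12 to 10.14. Cdk1 was low in supplied embryo 4, 10.01 against 10.14 to 10.19. Ccnb1 was low in that embryo too, 10.33 against 10.49 to 10.54. Cdt1 was low in supplied embryo 2, 10.42 against 10.47 to 10.48.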

How the results depend on the processing

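None of the 40 members passed the limma threshold under any setting run (lowest limma adjusted p 0.796 with an embryo left out, 0.823 otherwise). Genes called over the whole table numbered 3, and 1 with a mean minimum of 7, no variance trend, quantile normalization or averaged title numbers, 5 with robust variance or sample weights, and 0 to 4 with an embryo left out. With the replicate number as a replicate block 2 genes were called, and the list medians were 0.016 and 0.0060 as without it. Deviations of same-numbered embryos had correlations of -0.364 to 0.172, above 0 only for number 1. The numbers follow the order of the labels, and unpaired embryos were not compared, so this cannot decide whether samples are paired. Leaving out an embryo put 0 to 1 S phase members (Ccne2 without supplied embryo 4, Cdt1 without withdrawn embryo 1) and 0 to 1 G2/M members (Ube2c without withdrawn embryo 5) at an unadjusted p under 0.05. Elsewhere the list medians lay between 0.0024 and 0.029 (S phase) and between -0.00064, with quantile normalization, and 0.01 (G2/M). Differences near 0 changed sign: with quantile normalization Mcm2 (-0.0061), Pole (-0.00081), Ccnb1 (-0.00076), Cenpe (-0.00052) and Tpx2 (-0.0056), with sample weights Top2a (0.0082), and with averaged title numbers Gins1 (0.0077), Pole (-0.050), Top2a (0.0013) and Aurka (0.00048); the cause was not tested. With an embryo left out, 17 members changed sign at least once, with ranges of -0.013 to 0.032 (Mcm2), -0.046 to 0.013 (Mcm3), -0.0088 to 0.076 (Rrm1), -0.053 to 0.051 (Pole), -0.0063 to 0.085 (Fen1), -0.039 to 0.055 (Ccnb1), -0.019 to 0.027 (Cdk1), -0.017 to 0.061 (Cdc20), -0.044 to 0.032 (Top2a), -0.025 to 0.086 (Mki67), -0.048 to 0.0030 (Aurka), -0.034 to 0.029 (Aurkb), -0.018 to 0.055 (Bub1b), -0.028 to 0.051 (Cenpe), -0.049 to 0.083 (Cenpf), -0.039 to 0.032 (Tpx2) and -0.0083 to 0.099 (Nusap1). Depth is unknown and the scale shrunken, so small differences of weakly expressed members could go unseen.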
